A study of Homo sapiens with 16 samples.

Results

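The TGF-beta and BMP pathways are described here through 45 genes, chosen by name from a list of symbols. They cover 8 ligands, 5 extracellular binders (the LTBP genes and FST), 9 receptors, 6 signalling SMADs, 10 inhibitors and co-repressors, and 7 transcriptional targets. Of these, 44 were listed in the deposited table of 22916 genes, whose values are counts per 1e6 scaled by the trimmed mean of M-values (TMM), written CPM below. BMP2 was not listed and had summed counts of 1 in WT scramble and 6 in WT knockdown libraries, and of 2 in each truncation group. The activin subunit gene INHBA was listed, but its 0 to 10 counts per library left it below the filter on low counts, so 43 genes were tested among 17104.

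RNA was sequenced from the established human colon cancer line HCT116 in 4 groups of 4 libraries. WT cells had the unedited genotype, labelled Control. Truncation cells had been edited to carry a shortened Rpn10, a ubiquitin receptor of the proteasome encoded by PSMD4, without its ubiquitin interacting motif. Scramble cells received a scrambled siRNA and knockdown cells a mixture of 4 siRNAs against the deubiquitinase OTUD5, each at 50 nM, and RNA was taken 48 hours after the lipid transfection that all 4 groups shared. The labels do not say how many clones make up the truncation line, so genotype and clone cannot be told apart. Libraries are labelled as biological replicates, but no label names their cultures, and p-values thus measure a spread that may be technical. The series names proteasome activity and cell type-specific expression as its subject.

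TGF-beta and activin ligands bind pairs of type II and type I receptors, which phosphorylate SMAD2 and SMAD3, whereas BMP ligands act through SMAD1, SMAD5 and SMAD9. Both branches use SMAD4 to carry the signal to the nucleus, and both switch on their own inhibitors, such as SMAD7, BAMBI and PMEPA1. TGF-beta ligands are secreted in a latent form held by some LTBP proteins, such as LTBP1, and the ID genes are the classic early targets of BMP signals. In colon epithelium TGF-beta restrains growth, and colon cancers with mismatch repair defects often lose its type II receptor through a frameshift in a run of adenines in the coding sequence of TGFBR2. HCT116 is known to carry such a frameshift. Read counts per gene do not show it.

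The run is printed here as the reference genome has it, because it is where the receptor is known to be interrupted in this line. TGFBR2 (ENSG00000163513, chromosome 3, 30606502 to 30694142) has its 10 adenines at chr3:30650380-30650389 on GRCh38, plus strand, in exon 3 of 7 of the GENCODE transcript TGFBR2-201. They are bases 374 to 383 of a coding sequence of 1704 bases. Capitals mark the run in the sequence of chr3:30650350-30650419, which lies within that exon.
TGFBR2 exon 3: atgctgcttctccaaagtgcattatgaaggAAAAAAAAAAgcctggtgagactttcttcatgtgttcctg

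The 250 bases before a RefSeq gene start (GRCh38.p14) are printed 5′ to 3′ on the strand of the gene. TGFBI, PMEPA1 and THBS1 had some of the largest changes, and the TEAD target CCN2 was picked for the motifs in its window. Capitals mark GGAATG, a sequence bound by TEAD factors, or GGCGCC, a GC-rich sequence bound by SMADs. Every printed window holds such a sequence, and for PMEPA1 only the window with one was printed. The choice thus does not show how often large changes go with such a sequence. SMAD7, also among the large changes, had neither sequence in its windows. TGFBI is at chr5:136028738-136028987 on the plus strand, PMEPA1 at chr20:57711473-57711722 on the minus strand, THBS1 at chr15:39580829-39581078 on the plus strand, and CCN2 at chr6:131951373-131951622 on the minus strand.
TGFBI: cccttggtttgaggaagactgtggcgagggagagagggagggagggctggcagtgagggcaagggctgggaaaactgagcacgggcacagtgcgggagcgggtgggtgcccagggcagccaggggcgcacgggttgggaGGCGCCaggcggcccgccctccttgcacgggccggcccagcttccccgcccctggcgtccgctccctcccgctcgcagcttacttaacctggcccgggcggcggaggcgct
PMEPA1: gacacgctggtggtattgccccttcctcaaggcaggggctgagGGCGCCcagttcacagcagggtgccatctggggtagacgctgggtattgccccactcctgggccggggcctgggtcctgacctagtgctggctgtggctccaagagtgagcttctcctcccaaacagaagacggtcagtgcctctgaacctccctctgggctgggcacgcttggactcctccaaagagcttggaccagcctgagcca
THBS1: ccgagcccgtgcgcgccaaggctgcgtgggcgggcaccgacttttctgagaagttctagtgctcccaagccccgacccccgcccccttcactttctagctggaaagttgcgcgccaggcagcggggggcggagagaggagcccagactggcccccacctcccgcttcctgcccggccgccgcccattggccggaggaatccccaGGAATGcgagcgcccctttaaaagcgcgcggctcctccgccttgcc
CCN2: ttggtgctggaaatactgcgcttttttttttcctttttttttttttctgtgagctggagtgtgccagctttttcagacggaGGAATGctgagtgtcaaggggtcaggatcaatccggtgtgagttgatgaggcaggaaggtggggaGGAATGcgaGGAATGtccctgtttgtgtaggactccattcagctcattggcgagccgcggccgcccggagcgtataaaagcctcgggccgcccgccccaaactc

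TGFBI has 1 GGCGCC at 111 bases before the start and PMEPA1 has 1 at 207. THBS1 has 1 GGAATG at 46 bases before the start, and CCN2 has 3, at 169, 104 and 95. Windows from 250 bases before to 50 after the start were at hand for 41 of the 45 genes (80 windows, as a gene can have several) and for 35097 starts in all. On either strand, GGCGCC stood in 19.2% of all windows and in 21 of the 80, in 18 of the 41 genes. GGAATG stood in 14.0% of all windows and in 15 of the 80, in 13 of the 41 genes. The shares of all windows are to be set against the counts of windows only, as no share of all genes was computed. The AP-1 site TGANTCA stood in 7.71% of all windows and in 8 of the 80. The palindrome GTCTAGAC, known as a SMAD binding sequence, stood in 0.202% of all windows and in 1 of the 80, at 12 bases before the start of SMAD6. These matches describe letters in a window and no binding was measured.

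Totals ranged from 28777244 to 29645663 counts per library. OTUD5, the siRNA target, averaged 88.5 ± 3.18 CPM (SD, n = 4) with scramble and 20.0 ± 2.05 with OTUD5 siRNA in WT cells, and 94.9 ± 2.27 and 20.7 ± 1.49 in truncation cells. The 4 truncation knockdown libraries are called scramble in their titles and OTUD5 siRNA in their treatment and library names, and were grouped by the latter. Libraries 2 and 3 of the WT knockdown group stood apart. Library 2 differed most in its counts from the others of its group, and library 3 had a count in 32264 genes, against 25626 to 27765 elsewhere. Epithelial markers summed to 3908 to 5404 CPM per library, with KRT8 the largest part at group means of 2164 to 3085. Single markers differed within that sum. CDH1 averaged 51.8 and 59.6 CPM in WT cells with scramble and OTUD5 siRNA, against 28.5 and 28.4 in truncation cells. EPCAM averaged 220 and 176 CPM in WT cells, against 178 and 112 in truncation cells. KRT20 and VIL1 averaged at most 1.51 and 0.157 CPM. Of the colon transcription factors, CDX2 averaged 20.1 to 21.7 CPM per group, while CDX1 had 0 to 2 counts in every library. Of 8 mesenchymal markers COL1A1 made up nearly all of the sum, LUM was not in the CPM table, and DCN, PDGFRA and THY1 averaged at most 0.0921 CPM in any group. Immune markers summed to at most 1.94 CPM in all libraries but 1, WT scramble library 4 (13.2 CPM, of which PTPRC made up 11.7).

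Levels of the genes were compared with each other per length, as mean CPM per kb of exon in WT scramble cells. Among ligands TGFB1 (42.3) and BMP4 (31.0) stood well above BMP7 (3.82), INHBB (0.498), TGFB3 (0.375) and TGFB2 (0.0424). LTBP4 (32.7) and LTBP3 (30.5) were the abundant latency proteins. The 9 receptors ranged from ACVR1B (11.3) to TGFBR3 (1.45), with TGFBR2 at 10.6. Among the signalling SMADs, SMAD3 was highest (13.6) and SMAD9 lowest (0.492). The BMP targets ID1 (217), ID3 (55.3) and ID2 (43.5) were among the highest values of all members, and the TGF-beta targets PMEPA1 (0.114) and TGFBI (0.0462) among the lowest.

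**Figure D1:**
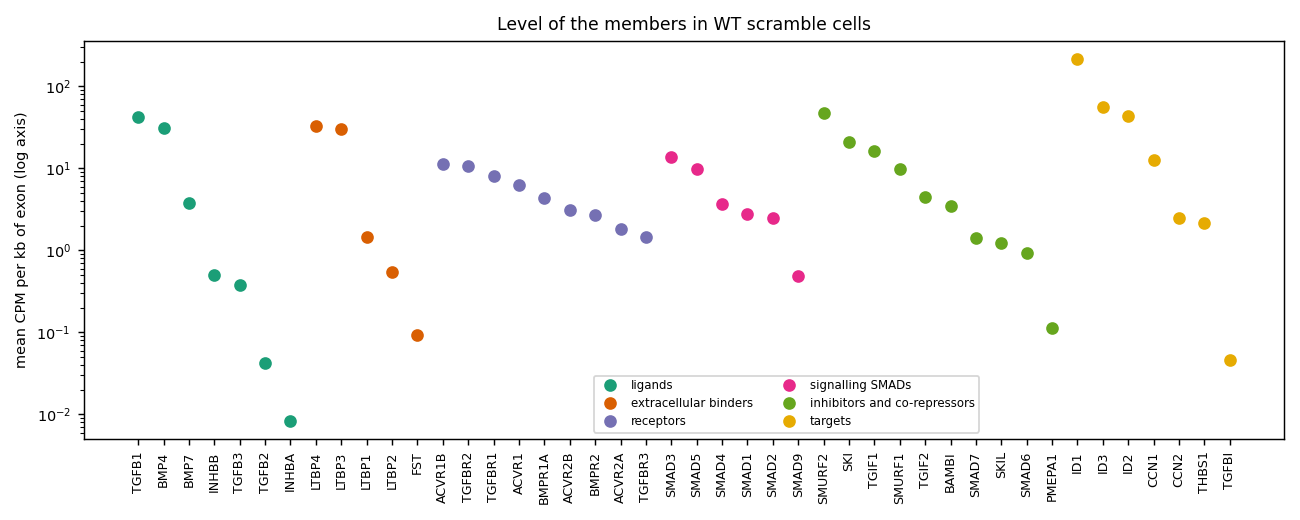
Mean CPM per kb of exon in the 4 WT scramble libraries (log axis) for the 44 listed genes, coloured by role and ordered within it. ID1 is highest at 217 and INHBA lowest at 0.00841.

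Then 4 pairs of groups and their interaction were compared, with calls at an adjusted p under 0.05. Truncation against WT in scramble cells gave calls for 26 of the 43 tested members, where 44.0% of all 17104 genes were called. Of these, 17 were higher (21.6% of all genes were) and 9 lower (22.4%). Knockdown gave calls for 32 of the 43 in WT cells (50.3% of all genes), 26 of them higher (25.2%) and 6 lower (25.1%). In truncation cells knockdown gave calls for 33 of the 43 (56.7% of all genes), 24 higher (28.7%) and 9 lower (28.1%). Truncation against WT in knockdown cells gave calls for 22 of the 43 (45.5% of all genes), 13 higher (21.9%) and 9 lower (23.6%). Only 5 of the 43 had a knockdown effect that differed between the genotypes, the interaction (5.69% of all genes), 3 with a higher effect in truncation cells (2.05%) and 2 with a lower one (3.65%). The median log2 fold change over the 43 was 0.07 for truncation in scramble cells, 0.24 for knockdown in WT cells, 0.23 for knockdown in truncation cells and 0.10 for truncation in knockdown cells, where the medians over all genes were -0.02, 0.01, 0.02 and 0.00. The 4 comparisons share groups pairwise, so their values are given side by side. Without WT knockdown libraries 2 and 3 the calls numbered 26, 25, 32 and 20 in the 4 comparisons of groups and 6 for the interaction.

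**Figure D2:**
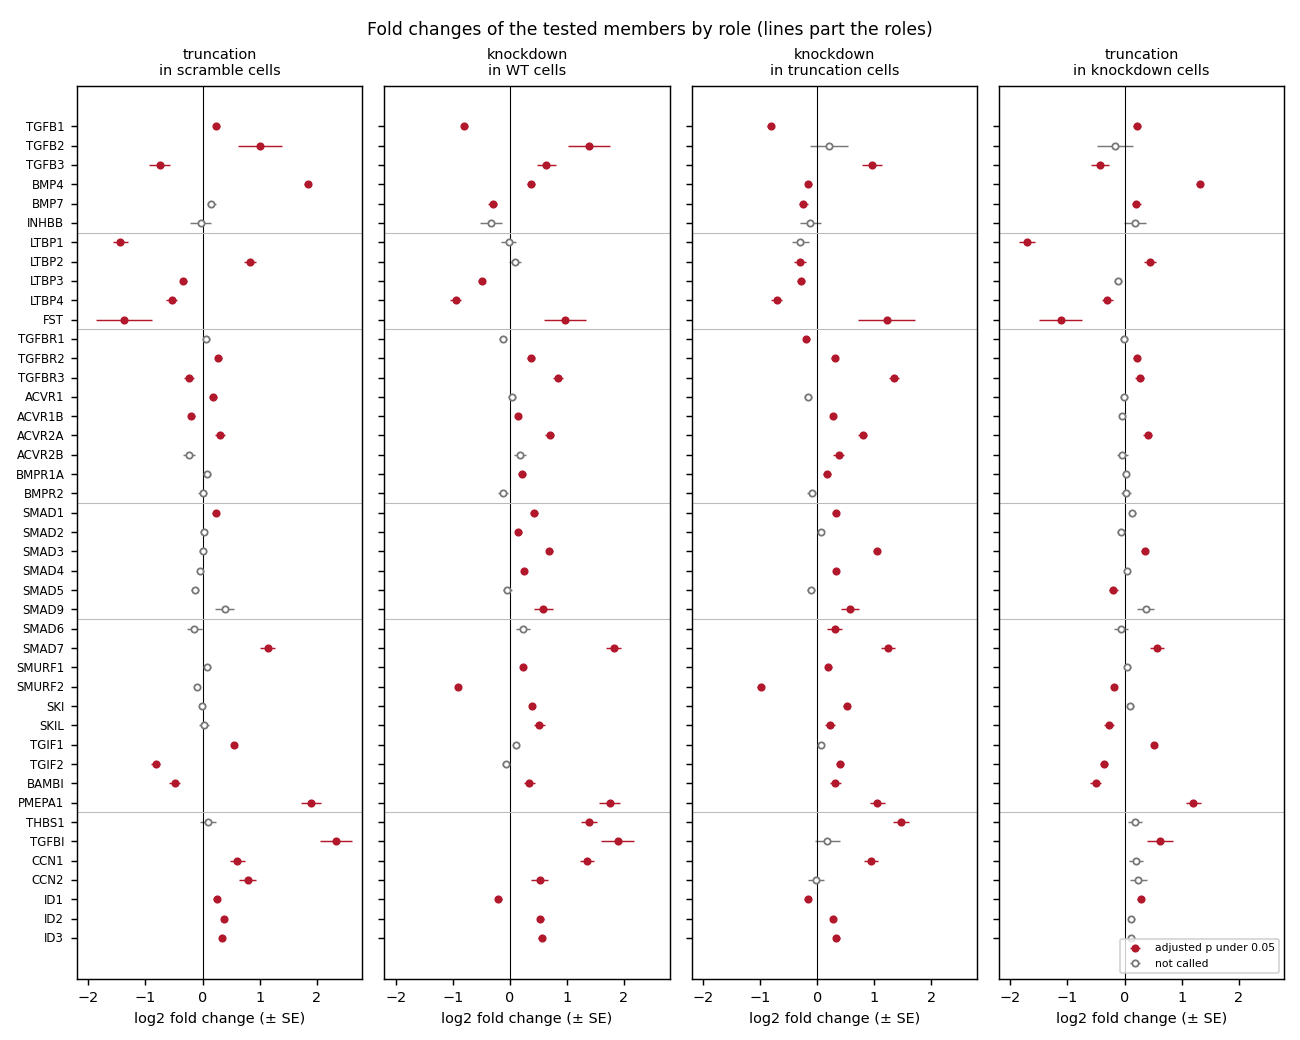
Log2 fold change (x axis, bars ± SE) of the 43 tested genes in the 4 comparisons of 2 groups, 4 libraries each, with lines between the roles. Filled points were called at an adjusted p under 0.05. The targets lie to the right of 0 for truncation in scramble cells, and TGFB1, LTBP4 and SMURF2 lie to the left for knockdown in both genotypes.

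Ligands were called in both directions in each comparison of 2 groups. TGFB1, the main latent TGF-beta ligand, stood at 142, 134, 125 and 147 CPM in WT scramble libraries 1 to 4, 157, 163, 165 and 166 in truncation scramble, 84.4, 67.8, 74.4 and 86.4 in WT knockdown and 87.7, 92.6, 89.3 and 91.5 in truncation knockdown. All 8 knockdown libraries lay below all 8 scramble libraries. TGFB1 fell by 0.80 ± 0.06 on the log2 scale with knockdown in WT cells (adjusted p = 2.92e-10) and fell by 0.82 ± 0.06 in truncation cells (adjusted p = 7.39e-11), and the interaction was -0.02 ± 0.09 (adjusted p = 0.933). It rose by 0.24 ± 0.06 with truncation in scramble cells, and its 0.22 ± 0.06 in knockdown cells was not called without WT knockdown libraries 2 and 3 (0.09, adjusted p = 0.256). HNRNPUL1 overlaps TGFB1 and the strand setting of the counting is not given, so reads from the 2 genes cannot be told apart. HNRNPUL1 itself showed 0.02 ± 0.05 and -0.02 ± 0.05 for knockdown in WT and truncation cells, and -0.24 ± 0.05 for truncation in scramble cells.

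TGFB3, another TGF-beta isoform, was scarce and moved against TGFB1. It stood at 1.60, 1.85, 1.70 and 2.22 CPM in WT scramble, 1.02, 1.20, 1.09 and 1.11 in truncation scramble, 3.32, 3.36, 2.10 and 2.65 in WT knockdown and 2.38, 2.18, 2.03 and 1.83 in truncation knockdown libraries. The truncation scramble libraries were the lowest 4, while WT knockdown library 3 lay within the range of WT scramble. TGFB3 rose by 0.64 ± 0.16 with knockdown in WT cells (adjusted p = 0.00194), rose by 0.96 ± 0.18 in truncation cells (adjusted p = 5.60e-05) and fell by 0.75 ± 0.18 with truncation in scramble cells (adjusted p = 0.00164). With truncation in knockdown cells it fell by 0.43 ± 0.16, a call lost in 6 of 25 alternatives, with an adjusted p of up to 0.104. TGFB2 had 4 to 9 counts per WT scramble library and 12 to 19 per WT knockdown library, and rose by 1.38 ± 0.37 with knockdown in WT cells (adjusted p = 0.00290). Its rise of 1.01 ± 0.38 with truncation in scramble cells was lost in 7 of 24 alternatives, with an adjusted p of up to 0.143.

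BMP4, a BMP ligand, had the largest fold change between the genotypes of the 6 tested ligands. Its values were 96.2, 94.7, 91.2 and 99.7 CPM in WT scramble, 349, 344, 345 and 343 in truncation scramble, 113, 142, 107 and 128 in WT knockdown and 294, 320.4, 299 and 295 in truncation knockdown libraries. The 4 groups did not overlap in any of the 4 comparisons. BMP4 rose by 1.84 ± 0.06 with truncation in scramble cells (adjusted p = 2.87e-17) and rose by 1.31 ± 0.06 in knockdown cells (adjusted p = 1.59e-14). With knockdown it rose by 0.37 ± 0.06 in WT cells and fell by 0.16 ± 0.06 in truncation cells, the latter lost with upper-quartile scaling (-0.10, adjusted p = 0.163). The interaction was -0.53 ± 0.09 (adjusted p = 7.50e-04). BMP7, another BMP ligand, fell by 0.30 ± 0.08 with knockdown in WT cells, a call lost without WT knockdown libraries 2 and 3 (-0.23, adjusted p = 0.0509), and fell by 0.24 ± 0.08 in truncation cells. INHBB, an activin and inhibin subunit, was not called in any comparison.

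**Figure D3:**
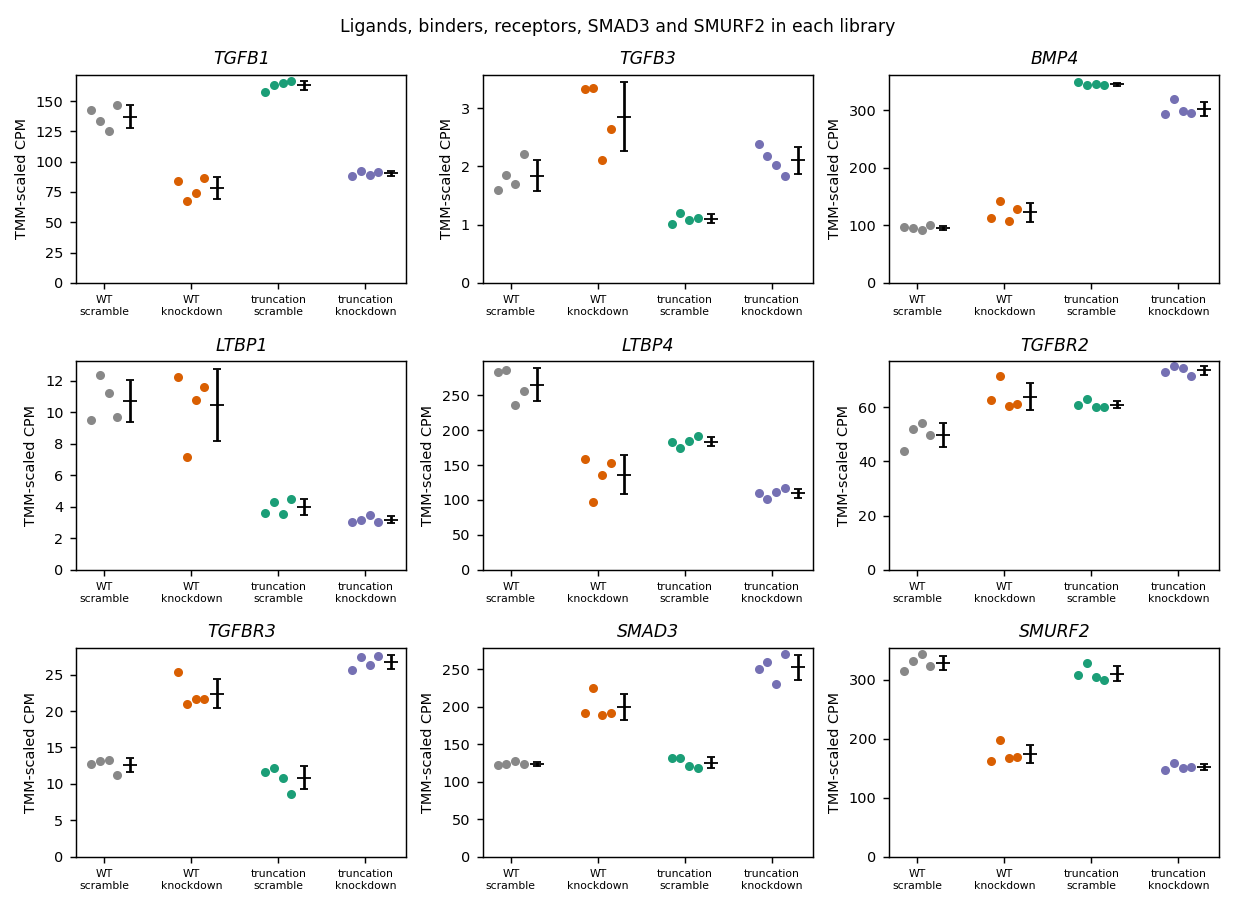
TMM-scaled CPM (y axis, linear from 0) of 9 ligands, binders, receptors and regulators in each of the 16 libraries. Points are libraries in the order of their replicate number and bars are mean ± SD (n = 4). BMP4 and LTBP1 separate by genotype, and TGFB1, LTBP4, TGFBR3, SMAD3 and SMURF2 by siRNA.

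All 5 extracellular binders were called for truncation in scramble cells, where 44.0% of all genes were. LTBP1, LTBP3, LTBP4 and FST were lower and LTBP2 was higher. LTBP1 stood at 9.51, 12.4, 11.2 and 9.72 CPM in WT scramble, 3.57, 4.32, 3.57 and 4.50 in truncation scramble, 12.2, 7.13, 10.8 and 11.6 in WT knockdown and 3.04, 3.14, 3.47 and 3.04 in truncation knockdown libraries. All 8 truncation libraries lay below all 8 WT libraries, of which WT knockdown library 2 was the lowest. It fell by 1.44 ± 0.14 with truncation in scramble cells (adjusted p = 5.81e-09) and fell by 1.71 ± 0.14 in knockdown cells (adjusted p = 4.02e-10), and the knockdown effects were -0.02 ± 0.12 (adjusted p = 0.892) in WT cells and -0.30 ± 0.15 (adjusted p = 0.108) in truncation cells. LTBP2 moved the other way, from 5.54, 4.57, 5.20 and 4.47 CPM in WT scramble to 9.56, 8.73, 9.03 and 8.17 in truncation scramble libraries. It was at 4.76, 6.22, 5.32 and 4.63 CPM in WT knockdown and 6.57, 7.57, 6.59 and 7.48 in truncation knockdown libraries. LTBP2 rose by 0.83 ± 0.11 with truncation in scramble cells (adjusted p = 6.92e-07) and rose by 0.44 ± 0.11 in knockdown cells, and fell by 0.30 ± 0.10 with knockdown in truncation cells.

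LTBP4 and LTBP3, the abundant latency proteins, had their highest levels in WT scramble cells. LTBP4 stood at 283, 286, 236 and 257 CPM in WT scramble, 183, 175, 185 and 192 in truncation scramble, 158, 97.2, 135 and 153 in WT knockdown and 109, 102, 111 and 116 in truncation knockdown libraries, with WT knockdown library 2 the lowest of all. It fell by 0.95 ± 0.10 with knockdown in WT cells (adjusted p = 1.38e-08), fell by 0.71 ± 0.10 in truncation cells (adjusted p = 9.32e-07) and fell by 0.54 ± 0.10 with truncation in scramble cells (adjusted p = 5.77e-05). The fall of 0.30 ± 0.10 with truncation in knockdown cells was lost without WT knockdown library 1 (-0.23, adjusted p = 0.0641) or 4 (-0.25, adjusted p = 0.0569). LTBP3 was at 341, 314, 281 and 322 CPM in WT scramble, 266, 240.5, 245 and 256 in truncation scramble, 229.9, 202, 208 and 246 in WT knockdown and 197, 195, 191 and 226 in truncation knockdown libraries. The WT scramble libraries were its highest 4. LTBP3 fell by 0.50 ± 0.07 with knockdown in WT cells (adjusted p = 1.36e-06), fell by 0.28 ± 0.07 in truncation cells and fell by 0.33 ± 0.07 with truncation in scramble cells. FST, which binds and blocks activin, had 4 to 14 counts per WT scramble library and 2 to 4 per truncation scramble library, and each of its 4 calls was lost in at least 4 alternatives.

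Of the 9 receptors, 3 were called higher (21.6% of all genes were) and 2 lower (22.4%) for truncation in scramble cells. The changes were at most 0.30 ± 0.08, for ACVR2A, an activin type II receptor. With knockdown 5 rose and 0 fell in WT cells (25.2% and 25.1% of all genes). In truncation cells 6 rose and 1 fell (28.7% and 28.1% of all genes). TGFBR2, the type II TGF-beta receptor, stood at 43.7, 51.9, 54.1 and 49.6 CPM in WT scramble, 60.8, 63.0, 60.0 and 60.2 in truncation scramble, 62.5, 71.5, 60.5 and 61.2 in WT knockdown and 72.9, 75.4, 74.5 and 71.7 in truncation knockdown libraries. The WT scramble libraries were the lowest 4 and the truncation knockdown libraries the highest 4. TGFBR2 rose by 0.28 ± 0.06 with truncation in scramble cells (adjusted p = 7.86e-04), rose by 0.37 ± 0.06 with knockdown in WT cells (adjusted p = 2.27e-05), rose by 0.31 ± 0.06 in truncation cells (adjusted p = 1.51e-04) and rose by 0.21 ± 0.06 with truncation in knockdown cells (adjusted p = 0.00596). These counts do not tell whether the transcripts held the frameshift.

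TGFBR3, betaglycan, a coreceptor that presents ligand to TGFBR2, had the largest knockdown effect of the receptors. It was at 12.8, 13.1, 13.3 and 11.2 CPM in WT scramble, 11.7, 12.2, 10.8 and 8.65 in truncation scramble, 25.4, 21.0, 21.6 and 21.7 in WT knockdown and 25.6, 27.4, 26.3 and 27.6 in truncation knockdown libraries. Every knockdown library lay above every scramble library, and truncation scramble library 4 was the lowest. TGFBR3 rose by 0.84 ± 0.09 in WT cells (adjusted p = 1.96e-08) and rose by 1.34 ± 0.09 in truncation cells (adjusted p = 3.28e-12). The interaction was 0.50 ± 0.12 (adjusted p = 0.0171). Its small fall with truncation in scramble cells (-0.23 ± 0.09) was lost in 13 of 25 alternatives, with an adjusted p of up to 0.243, and its rise in knockdown cells (0.27 ± 0.08) was lost without WT knockdown libraries 2 and 3 (0.20, adjusted p = 0.111). ACVR2A rose by 0.69 ± 0.08 with knockdown in WT cells and rose by 0.80 ± 0.08 in truncation cells, from 12.5 ± 0.919 CPM (SD, n = 4) in WT scramble to 26.4 ± 2.55 in truncation knockdown cells. ORC4, which overlaps ACVR2A, had values of 0.10 ± 0.06 and -0.02 ± 0.06 in the same comparisons. With truncation in scramble cells ORC4 was called higher (0.25 ± 0.06, adjusted p = 0.00143), a value near the 0.30 ± 0.08 of ACVR2A there, and shared reads cannot be told apart. The type I receptors ACVR1B and BMPR1A had knockdown values of 0.14 ± 0.05 and 0.22 ± 0.07 in WT cells, calls that were lost in 15 and 3 of 25 alternatives. In truncation cells the rise of BMPR1A (0.16, adjusted p = 0.0451) was lost in 17 of 25 alternatives, with an adjusted p of up to 0.245. TGFBR1, the type I TGF-beta receptor, fell by 0.19 ± 0.07 with knockdown in truncation cells, a call lost with upper-quartile scaling (-0.14, adjusted p = 0.0632). BMPR2, the type II BMP receptor, was not called in any comparison.

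Most signalling SMADs rose with knockdown. Truncation in scramble cells gave a call for 1 of the 6 (44.0% of all genes), SMAD1 (0.23 ± 0.07, adjusted p = 0.00700). With knockdown 5 of the 6 rose in WT cells (25.2% of all genes) and 4 in truncation cells (28.7%). In either, 0 fell (25.1% and 28.1% of all genes). SMAD3, which carries TGF-beta and activin signals, stood at 122, 123, 128 and 124 CPM in WT scramble, 132, 131, 120.4 and 119 in truncation scramble, 191, 226, 189 and 191 in WT knockdown and 249.9, 259.7, 230.2 and 270.4 in truncation knockdown libraries. The knockdown libraries of each genotype lay above all scramble libraries, and those of truncation cells above those of WT cells. SMAD3 rose by 0.69 ± 0.06 with knockdown in WT cells (adjusted p = 1.35e-09) and rose by 1.04 ± 0.06 in truncation cells (adjusted p = 4.59e-13). The interaction of 0.35 ± 0.09 (adjusted p = 0.0160) was lost without WT knockdown library 1 (0.31, adjusted p = 0.0519) or truncation scramble library 3 (0.31, adjusted p = 0.0540). For truncation the values were 0.00 ± 0.06 (adjusted p = 0.983) in scramble cells and 0.35 ± 0.06 (adjusted p = 3.45e-05) in knockdown cells.

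SMAD4, the shared partner, rose by 0.24 ± 0.05 with knockdown in WT cells (adjusted p = 5.09e-04) and rose by 0.33 ± 0.05 in truncation cells (adjusted p = 1.10e-05). SMAD1 and SMAD9, of the BMP branch, rose by 0.42 ± 0.07 and 0.59 ± 0.17 with knockdown in WT cells, and by 0.32 ± 0.06 and 0.57 ± 0.16 in truncation cells. SMAD9 was scarce, at 2.82 ± 0.667 CPM (SD, n = 4) in WT scramble and 4.20 ± 1.05 in WT knockdown cells. SMAD2, the closest relative of SMAD3, showed 0.15 ± 0.06 with knockdown in WT cells, a call lost in 17 of 25 alternatives, with an adjusted p of up to 0.222. SMAD5 was not called for knockdown in either genotype, with -0.04 ± 0.07 in WT and -0.11 ± 0.07 in truncation cells.

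The inhibitors held some of the largest changes among the members. SMAD7, the inhibitory SMAD that TGF-beta induces against its own receptors, stood at 7.94, 6.59, 6.66 and 7.58 CPM in WT scramble, 16.3, 17.5, 14.8 and 15.4 in truncation scramble, 21.4, 32.7, 21.8 and 25.0 in WT knockdown and 37.0, 40.3, 27.3 and 43.4 in truncation knockdown libraries. The WT scramble libraries were the lowest 4 and the truncation scramble libraries came next, below every knockdown library. SMAD7 rose by 1.14 ± 0.14 with truncation in scramble cells (adjusted p = 3.29e-07), rose by 1.82 ± 0.14 with knockdown in WT cells (adjusted p = 7.82e-11), rose by 1.24 ± 0.12 in truncation cells (adjusted p = 4.72e-09) and rose by 0.56 ± 0.12 with truncation in knockdown cells (adjusted p = 3.87e-04). The interaction was -0.57 ± 0.18 (adjusted p = 0.0641), and it was called with DESeq2 (-0.59, adjusted p = 0.0238), with the replicate block (-0.58, adjusted p = 0.0260) and with no filter on low counts (-0.60, adjusted p = 1.06e-04). It was also called without WT knockdown library 1 (-0.67, adjusted p = 0.0337) or 3 (-0.65, adjusted p = 0.0401) or truncation knockdown library 4 (-0.68, adjusted p = 0.0327).

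PMEPA1, a membrane protein that TGF-beta induces and that keeps SMAD2 and SMAD3 from the receptor, was lowest in WT scramble and highest in truncation knockdown cells, with WT knockdown and truncation scramble between them. It was at 0.697, 0.488, 0.694 and 0.679 CPM in WT scramble, 2.45, 2.36, 2.27 and 2.56 in truncation scramble, 2.12, 2.55, 1.74 and 2.16 in WT knockdown and 5.09, 5.60, 4.55 and 4.38 in truncation knockdown libraries, from 14 to 20 counts per library in the first group to 134 to 164 in the last. The groups did not overlap in any of the 4 comparisons. PMEPA1 rose by 1.89 ± 0.17 with truncation in scramble cells (adjusted p = 3.08e-09), rose by 1.75 ± 0.18 with knockdown in WT cells (adjusted p = 1.28e-08), rose by 1.06 ± 0.13 in truncation cells (adjusted p = 2.54e-07) and rose by 1.20 ± 0.13 with truncation in knockdown cells (adjusted p = 7.48e-08). Its interaction was -0.69 ± 0.22 (adjusted p = 0.0696), and it was called without WT knockdown library 3 (-0.79, adjusted p = 0.0384).

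SMURF2, a ubiquitin ligase that works with SMAD7 to remove receptors, was the inhibitor that fell with knockdown. Its values were 314, 332, 343 and 324 CPM in WT scramble, 307, 328, 304 and 299 in truncation scramble, 162, 197, 168 and 168 in WT knockdown and 147, 159, 149.9 and 152 in truncation knockdown libraries. All 8 knockdown libraries lay below all 8 scramble libraries. SMURF2 fell by 0.91 ± 0.06 in WT cells (adjusted p = 3.51e-12) and fell by 0.99 ± 0.06 in truncation cells (adjusted p = 2.98e-13). CEP95, which overlaps SMURF2, had values of 0.11 ± 0.05 and 0.40 ± 0.05 there. The related ligase SMURF1 rose by 0.23 ± 0.06 in WT cells, a call lost without WT knockdown libraries 2 and 3 (0.16, adjusted p = 0.0501). In truncation cells it rose by 0.20 ± 0.06, a call lost in 2 of 25 alternatives, with an adjusted p of up to 0.0610. TRRAP, which overlaps SMURF1, had values of 0.24 ± 0.11 and 0.18 ± 0.11 in the same comparisons, close in size to those of SMURF1, and reads from these genes cannot be told apart either. SMAD6, the other inhibitory SMAD, showed 0.23 ± 0.12 (adjusted p = 0.132) for knockdown in WT cells, and was called there without WT knockdown library 2 (0.35, adjusted p = 0.00738).

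BAMBI, a decoy receptor without a kinase, stood at 7.84, 7.95, 8.60 and 7.65 CPM in WT scramble, 5.04, 5.31, 6.76 and 5.99 in truncation scramble, 10.8, 8.77, 10.3 and 10.4 in WT knockdown and 7.10, 7.37, 7.11 and 6.56 in truncation knockdown libraries. Every truncation library lay below every WT library. BAMBI fell by 0.49 ± 0.10 with truncation in scramble cells (adjusted p = 2.84e-04) and fell by 0.51 ± 0.09 in knockdown cells (adjusted p = 9.62e-05), and rose by 0.34 ± 0.09 with knockdown in WT cells (adjusted p = 0.00400). Its rise with knockdown in truncation cells (0.32 ± 0.10) was lost without truncation scramble library 1 (0.24, adjusted p = 0.0617) or 2 (0.26, adjusted p = 0.0501).

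The nuclear co-repressors TGIF1 and TGIF2 moved apart with truncation. TGIF2 was at 16.1, 17.7, 17.6 and 16.5 CPM in WT scramble, 9.31, 10.3, 9.68 and 9.52 in truncation scramble, 16.1, 15.1, 16.7 and 16.7 in WT knockdown and 12.6, 13.2, 12.5 and 11.5 in truncation knockdown libraries, so that the truncation libraries lay below the WT libraries and truncation scramble lowest. TGIF2 fell by 0.82 ± 0.07 in scramble cells (adjusted p = 1.16e-09) and fell by 0.37 ± 0.07 in knockdown cells (adjusted p = 1.33e-04). With knockdown it rose by 0.40 ± 0.07 in truncation cells (adjusted p = 5.55e-05), against -0.06 ± 0.07 (adjusted p = 0.481) in WT cells, and the interaction was 0.46 ± 0.10 (adjusted p = 0.00758). TGIF1 rose by 0.55 ± 0.05 with truncation in scramble cells and rose by 0.51 ± 0.05 in knockdown cells, from 135 ± 4.51 to 199 ± 3.51 CPM (SD, n = 4) in scramble cells. The co-repressors SKI and SKIL, which bind SMAD complexes, rose by 0.39 ± 0.05 and 0.52 ± 0.09 with knockdown in WT cells. In truncation cells SKI rose by 0.51 ± 0.05, and the rise of SKIL (0.23 ± 0.09) was lost in 11 of 25 alternatives, with an adjusted p of up to 0.164.

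Targets were the role with the most even direction for truncation in scramble cells, with 6 of 7 higher and 0 lower. Of all genes, 21.6% were higher and 22.4% lower there. In the wider list below, CDKN2B and MSX2 rose there, while COL1A1 averaged 50.5 CPM in WT scramble and 33.6 in truncation scramble cells. Of the 7 listed targets, knockdown raised 6 and lowered 1 in WT cells (25.2% and 25.1% of all genes). In truncation cells it raised 4 and lowered 1 (28.7% and 28.1%). In knockdown cells truncation gave 2 higher and 0 lower (21.9% and 23.6% of all genes). TGFBI, a secreted matrix protein named for its induction by TGF-beta, stood at 0.279, 0.105, 0.416 and 0.643 CPM in WT scramble, 2.07, 1.95, 1.73 and 1.66 in truncation scramble, 1.44, 1.36, 1.51 and 1.01 in WT knockdown and 2.21, 2.01, 1.67 and 2.25 in truncation knockdown libraries. The WT scramble values rest on 3 to 18 counts per library and lay below all others, and the truncation groups overlapped each other. TGFBI rose by 2.34 ± 0.28 with truncation in scramble cells (adjusted p = 2.90e-07) and rose by 1.89 ± 0.29 with knockdown in WT cells (adjusted p = 7.96e-06). With knockdown in truncation cells it showed 0.17 ± 0.22 (adjusted p = 0.526), and the interaction was -1.72 ± 0.37 (adjusted p = 0.00661). The rise of 0.62 ± 0.23 with truncation in knockdown cells was lost without WT knockdown library 4 (0.50, adjusted p = 0.102) or truncation knockdown library 1 (0.57, adjusted p = 0.0715), 2 (0.62, adjusted p = 0.0506) or 4 (0.56, adjusted p = 0.0751).

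THBS1, a matrix protein that can activate latent TGF-beta, rose with knockdown in both genotypes. Its values were 18.8, 18.1, 21.6 and 20.4 CPM in WT scramble, 20.3, 23.3, 20.9 and 20.9 in truncation scramble, 42.2, 73.8, 45.03 and 43.8 in WT knockdown and 50.8, 66.4, 47.9 and 65.3 in truncation knockdown libraries. Every knockdown library lay above every scramble library, and WT knockdown library 2 was the highest. THBS1 rose by 1.39 ± 0.14 in WT cells (adjusted p = 7.86e-09) and rose by 1.47 ± 0.14 in truncation cells (adjusted p = 1.37e-09). Without WT knockdown libraries 2 and 3 the rise in WT cells was smaller (1.12, adjusted p = 1.25e-08). For truncation the values were 0.10 ± 0.14 (adjusted p = 0.591) in scramble cells and 0.18 ± 0.13 (adjusted p = 0.264) in knockdown cells, where it was called without WT knockdown library 2 (0.40, adjusted p = 7.91e-04) and without libraries 2 and 3 (0.43, adjusted p = 0.00174).

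CCN1 and CCN2, secreted matricellular proteins that TGF-beta and YAP-TEAD signals induce, averaged higher in each of the other groups than in WT scramble cells. CCN1 went from 30.7 ± 1.82 CPM (SD, n = 4) in WT scramble to 47.3 ± 5.46 in truncation scramble, 78.1 ± 22.5 in WT knockdown and 88.5 ± 10.6 in truncation knockdown cells. It rose by 1.35 ± 0.13 with knockdown in WT cells (adjusted p = 4.45e-09), rose by 0.94 ± 0.13 in truncation cells (adjusted p = 5.94e-07) and rose by 0.61 ± 0.13 with truncation in scramble cells (adjusted p = 4.75e-04). CCN2 went from 5.78 ± 0.849 CPM in WT scramble to 10.1 ± 0.905 in truncation scramble, 8.27 ± 2.69 in WT knockdown and 9.69 ± 0.901 in truncation knockdown cells. It rose by 0.79 ± 0.15 with truncation in scramble cells (adjusted p = 1.27e-04), and its rise of 0.52 ± 0.15 with knockdown in WT cells was lost without WT knockdown libraries 2 and 3 (0.30, adjusted p = 0.0696). With knockdown in truncation cells CCN2 showed -0.02 ± 0.14 (adjusted p = 0.905). For truncation in knockdown cells neither CCN1 (0.19 ± 0.12) nor CCN2 (0.24 ± 0.14) was called. Without WT knockdown library 2 alone both were, CCN1 at 0.39, adjusted p = 9.65e-04, and CCN2 at 0.48, adjusted p = 7.04e-04. Without libraries 2 and 3 the value was 0.30, adjusted p = 0.0161, for CCN1 and 0.45, adjusted p = 0.00530, for CCN2.

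The ID genes, transcriptional inhibitors that BMP signals induce through SMAD1, SMAD5 and SMAD9, rose together with truncation in scramble cells. ID1 rose by 0.25 ± 0.06 (adjusted p = 0.00187), ID2 rose by 0.37 ± 0.06 (adjusted p = 1.66e-05) and ID3 rose by 0.34 ± 0.06 (adjusted p = 5.86e-05). With knockdown ID1 parted from the others. ID2 rose by 0.53 ± 0.06 and ID3 rose by 0.56 ± 0.06 in WT cells, and in truncation cells they rose by 0.28 ± 0.06 and 0.34 ± 0.06. ID1 fell by 0.20 ± 0.06 in WT cells, a call lost without WT knockdown libraries 2 and 3 (-0.10, adjusted p = 0.210), and fell by 0.17 ± 0.06 in truncation cells, a call lost with upper-quartile scaling (-0.11, adjusted p = 0.121). ID1 averaged 267 ± 14.4 CPM (SD, n = 4) in WT scramble, 320.2 ± 14.5 in truncation scramble, 231 ± 22.6 in WT knockdown and 278 ± 16.1 in truncation knockdown cells. Several of the targets are also expressed by stromal cells. The mesenchymal markers summed to 47.2 to 57.2 CPM per library in WT scramble, where COL1A1 averaged 50.5. In the other groups they summed to 34.6 to 38.2 (truncation scramble), 34.9 to 48.1 (WT knockdown) and 34.4 to 40.2 CPM (truncation knockdown). The sum, nearly all COL1A1, was highest in the group with the lowest means of 6 of the 7 targets. COL3A1 was lowest there, at 0.728 CPM against 1.66 (WT knockdown), 1.11 (truncation scramble) and 1.33 (truncation knockdown). COL1A2 averaged 0.433 CPM in WT scramble, and 1.54, 0.362 and 0.527 in the other groups in the same order. All 16 libraries came from the cultured HCT116 line, so stromal cells were not part of the design. The source of these marker counts was not tested.

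**Figure D4:**
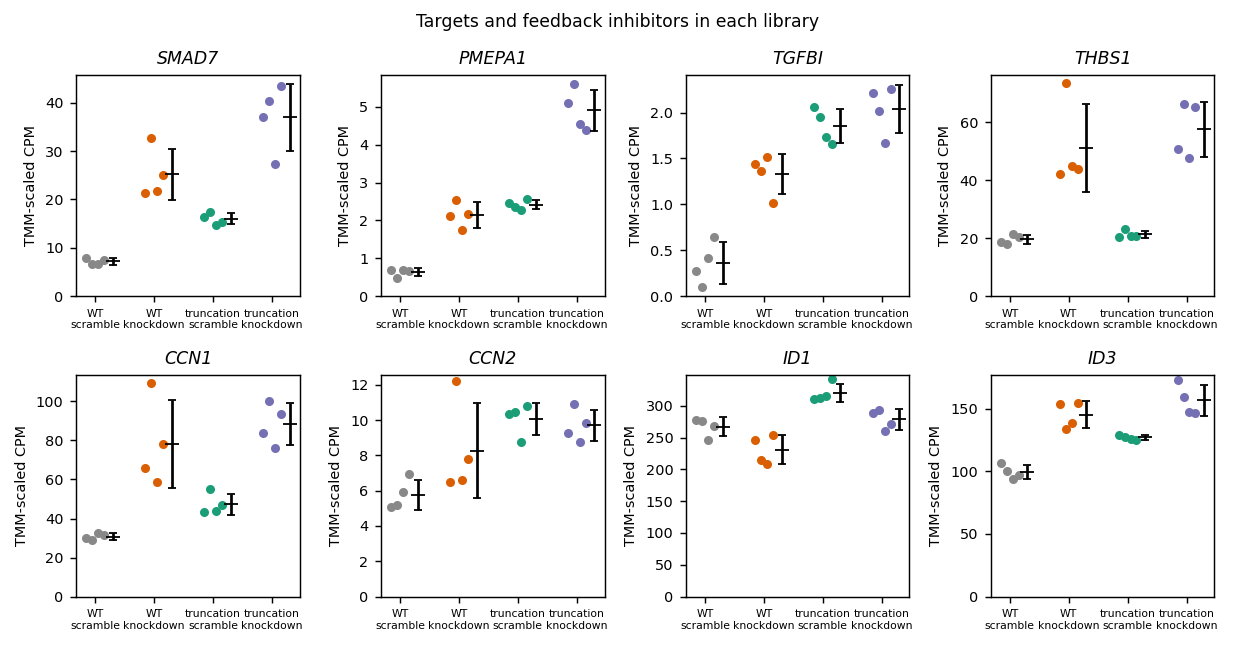
TMM-scaled CPM (y axis, linear from 0) of 6 targets and the feedback inhibitors SMAD7 and PMEPA1 in each of the 16 libraries. Points are libraries in the order of their replicate number and bars are mean ± SD (n = 4). WT scramble has the lowest mean for all 8 genes except ID1, and THBS1 separates by siRNA.

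The knockdown effect differed between the genotypes for 5 members, BMP4, TGFBR3, SMAD3, TGIF2 and TGFBI. It was higher in truncation cells for the coreceptor TGFBR3, for SMAD3 and for the co-repressor TGIF2. It was lower there for the ligand BMP4 and the target TGFBI, and each of these values stands above with its test. For the other 38 tested members the difference was not called, which does not show that the effects were alike. TGFB2, at -1.18 ± 0.50 (adjusted p = 0.174), had the widest uncertainty among the larger values.

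**Figure D5:**
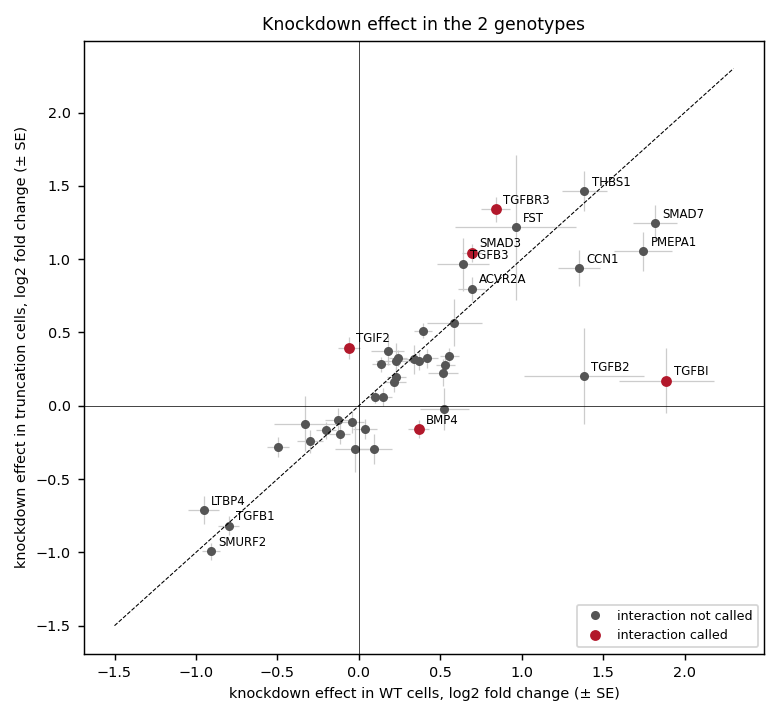
Log2 fold change with knockdown in WT cells (x axis) against that in truncation cells (y axis) for the 43 tested genes, bars ± SE, with the line of equal effects. The 5 red points have a called interaction, with TGFBI far below the line and TGFBR3, SMAD3 and TGIF2 above it.

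A wider list of 94 other genes of the 2 pathways, of which 68 were tested, gives the surroundings of these members. For truncation in scramble cells 15 of the 68 were called higher and 20 lower, with a median of -0.06, where 21.6% and 22.4% of all genes were. For truncation in knockdown cells 13 were higher and 20 lower (21.9% and 23.6% of all genes). Knockdown gave 27 higher and 20 lower in WT cells (25.2% and 25.1% of all genes), with a median of 0.10. In truncation cells it gave 27 higher and 21 lower (28.7% and 28.1% of all genes), with a median of 0.09. The interaction was called for 10, 3 higher and 7 lower (2.05% and 3.65% of all genes). The named ones are the 2 highest and 2 lowest called values of each comparison.

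With truncation in scramble cells the cell cycle inhibitor gene CDKN2B, a TGF-beta target, rose by 1.73 ± 0.07, from 9.66 ± 0.442 CPM (SD, n = 4) to 32.4 ± 2.07. MSX2, a homeobox gene that BMP induces, rose by 1.38 ± 0.07, from 14.0 ± 0.515 to 36.7 ± 1.84 CPM. The type I receptor gene ACVR1C fell by 1.22 ± 0.24, and NOG, a secreted BMP antagonist with 4 to 8 counts per truncation scramble library, fell by 1.34 ± 0.39. In knockdown cells CDKN2B rose by 0.99 ± 0.06 and ITGB8, an integrin subunit that activates latent TGF-beta, rose by 1.01 ± 0.12 with truncation, while ACVR1C fell by 0.76 ± 0.22 and SNAI2, an epithelial-mesenchymal transition factor with 6 to 13 counts per truncation knockdown library, fell by 1.09 ± 0.43.

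FURIN, the protease that cuts TGF-beta precursors, was among the lowest values for knockdown in both genotypes. It averaged 132 ± 4.90 CPM (SD, n = 4) in WT scramble, 96.2 ± 1.65 in truncation scramble, 59.6 ± 7.12 in WT knockdown and 37.2 ± 2.00 in truncation knockdown cells, and fell by 1.14 ± 0.07 in WT and fell by 1.34 ± 0.07 in truncation cells. CTDSP2, a phosphatase that acts on SMADs, averaged 79.7 ± 7.55 CPM in WT scramble, 71.6 ± 2.99 in truncation scramble, 153 ± 8.43 in WT knockdown and 178 ± 6.97 in truncation knockdown cells, and rose by 0.95 ± 0.06 with knockdown in WT and 1.35 ± 0.06 in truncation cells. LRRC32, which anchors latent TGF-beta at the cell surface, rose by 1.43 ± 0.27 in WT cells, and HEY1, a transcriptional repressor, rose by 1.68 ± 0.21 in truncation cells. ID4 fell by 1.09 ± 0.37 in WT cells at 5 to 8 counts per knockdown library, and the type I receptor gene ACVRL1 fell by 1.34 ± 0.26 in truncation cells. The interaction was highest for AMH (1.12 ± 0.15) and COL1A1 (0.42 ± 0.12) and lowest for ATOH8 (-1.40 ± 0.25) and MSX2 (-0.97 ± 0.09).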

How the data were processed

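Per the labels' protocols, RNA was column-purified, and a commercial provider made the libraries with its own Nextera-XT-based method. The authors deposited raw counts per gene, those counts after a filter, and a signal table (TMM-scaled CPM), which equalled values recomputed from the filtered counts within a relative difference of 5.0e-15. Per the submitters' processing notes, STAR 2.7.3a, DESeq2, edgeR and limma were used, and the build was hg38. Their roles, the counting program, the annotation and the strand setting: not given in the sources used here.

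Levels are the deposited signal values, with SD over 4 libraries. Tests started from the raw counts. Genes were kept with filterByExpr over the 4 groups (17104 genes), scaled by TMM and tested by the quasi-likelihood method of edgeR 4.0.16 (R 4.3.3), all 16 libraries sharing the spread at 12 residual degrees of freedom. The 5 comparisons were two-sided, with Benjamini-Hochberg adjustment over all tested genes, and called at an adjusted p under 0.05. A value after ± on a fold change is its standard error, and fold changes are log2. Exon lengths and coordinates are 1-based from GENCODE on GRCh38, and promoter windows are from RefSeq.

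The members and lists were chosen with earlier results of these data known. Values in every library are given for members among the 4 highest or 4 lowest called changes of a comparison of 2 groups (mean log2 CPM of at least 0), the 6 largest called interactions, and TGFBR2. Of the other pathway genes the 2 highest and 2 lowest called values were named per comparison. Other members were described by role after their values were seen. Alternatives were other scalings, no filter, the authors' filtered counts, DESeq2 1.42.0, limma voom (limma 3.58.1), a replicate block, only the groups compared, each library left out, and, chosen after seeing the data, both WT knockdown libraries 2 and 3 left out. Replicates were compared in pairs, none were identical, and chi-squares per degree of freedom were 2.75 to 20.8. Some low values rest on few counts, which limits their precision.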

Additional observations from a re-analysis of the deposited data

Results flagged for a closer look

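Single libraries stood far from the other 3 of their group for 10 genes, a flag that chance raises in about 1 of 20 groups. With 43 tested members in 4 groups, chance alone could raise a similar number, so the count of flags carries no weight. WT knockdown library 2 accounted for 5 of them. It was the highest of its group for SMAD3 (226 CPM, others 189 to 191), SMURF2 (197, others 162 to 168), THBS1 (73.8, others 42.2 to 45.03) and ID2 (158, others 130.2 to 131), and the lowest for TGFB2 (0.419, others 0.617 to 0.627). WT knockdown library 1 was the highest for TGFBR3 (25.4 CPM, others 21.0 to 21.7). WT scramble library 2 was the lowest for PMEPA1 (0.488 CPM, others 0.679 to 0.697). Truncation scramble library 4 was the lowest for SMURF1 (61.0 CPM, others 66.3 to 67.4) and the highest for ID1 (342 CPM, others 311 to 316). Truncation knockdown library 4 was the lowest for BMPR1A (53.8 CPM, others 57.8 to 58.4).

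The interaction, the effect of knockdown in truncation cells less the effect in WT cells, was called for 5 members. It was -0.53 on the log2 scale for BMP4, 0.50 for TGFBR3, 0.35 for SMAD3, 0.46 for TGIF2 and -1.72 for TGFBI. Without WT scramble library 4, the one with the most PTPRC counts, the value for TGFBI was -2.14, adjusted p = 0.00106. For SMAD3 the call was lost without WT knockdown library 1 (0.31, adjusted p = 0.0519) or truncation scramble library 3 (0.31, adjusted p = 0.0540).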

How the results depend on the processing

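No called member changed direction under any alternative run. The number of members called stayed within 1.5 times its value in every alternative except for the interaction with no filter on low counts, which called 8 against 5. Leaving out 1 library at a time gave 22 to 27 calls for truncation in scramble cells, 28 to 32 for knockdown in WT cells, 28 to 35 for knockdown in truncation cells, 19 to 25 for truncation in knockdown cells and 4 to 7 for the interaction. The replicate block gave 26, 32, 34, 22 and 6 calls in the same order. Over 24 pairs of same-numbered libraries the deviations from the group means correlated at -0.08 to 0.15, 3 of them over 0.1. For libraries with different numbers the range was -0.17 to 0.14. These weak values do not tell whether same-numbered libraries shared a batch. Upper-quartile scaling gave 25 higher and 6 lower calls for knockdown in truncation cells, against 24 and 9. Calls of small changes and of genes with few counts, such as FST, TGFB2, ACVR1B, BMPR1A and SMAD2, were the ones lost in several alternatives, and the cause was not tested. SMAD7, CCN1 and CCN2 had an interaction called with no filter on low counts. ACVR1 for truncation in scramble cells was lost in 7 of 25 alternatives, with an adjusted p of up to 0.150, SMAD6 for knockdown in truncation cells lost in 11 of 25 alternatives, with an adjusted p of up to 0.149, and BMP7 and SMAD5 for truncation in knockdown cells lost in 9 of 25 alternatives, with an adjusted p of up to 0.306, and lost in 5 of 25 alternatives, with an adjusted p of up to 0.202. Low counts left BMP2 and INHBA untested, and they limit TGFB2, FST and TGFBI, at as few as 2 counts per library.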
